A study of Mus musculus with 12 samples.

Results

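Genes of fat cells and genes that build fatty acids and glycerolipids were followed in stomach RNA of mice without and with Car9. The 32 genes were chosen by symbol, and a probe counted as a member if the platform annotation or the study's list of changed genes gave it 1 of those symbols. Of the 32 genes, 30 had a probe, and these 30 genes had 51 of the 46643 probes on the array. No probe of Adrb3, which encodes a receptor for catecholamines on fat cells, or of Acsl1, which activates long-chain fatty acids, was matched. By role, 34 member probes belonged to fat cell markers and 17 to lipid synthesis genes. Of the member probes, 30, for 23 genes, were detected on 3 or more arrays (detection p under 0.01), and these were tested among 20751 probes in all.

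Stomach RNA came from 6 Car9-/- mice, which carry a targeted disruption of Car9 throughout the body, and from 6 wild-type mice. All were C57BL/6 mice, with 3 males and 3 females per genotype. Ages were 10 to 12 months for Car9-/- and 8 to 12 months for wild-type. Each mouse gave 1 specimen from the body of the stomach and was measured on 1 Illumina Mouse-6 array. Values are log2 signals after quantile normalization, so a difference of 1 is a doubling, and levels of different probes cannot be set against each other.

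Fat cells store triglyceride in a lipid droplet coated by perilipin and CIDE proteins, release it through a chain of lipases, and secrete hormones such as adiponectin and leptin. New fatty acids are made from citrate by ATP citrate lyase, acetyl-CoA carboxylase and fatty acid synthase. They are then elongated, desaturated and joined to glycerol phosphate. The synthesis enzymes are not particular to fat: liver, glands and epithelia make lipid as well. Fat also lies along the outer wall of the stomach, where the omenta attach.

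The windows before the transcription starts of 7 members are shown because the results turn on how these genes moved together or apart. Adipoq, Cfd, Lep and Thrsp are members whose signal was highest in wild-type mice 4 and 6. Plin4 and Acly were highest in the same mice and also passed the genotype test. Fasn shared neither trait. Each window is the 250 bases before the RefSeq start on GRCm38.p6, read along the gene's own strand. They lie at chr16:23146286-23146535 (Adipoq, plus strand), chr10:79890603-79890852 (Cfd, plus strand), chr6:29059971-29060220 (Lep, plus strand), chr7:97417551-97417800 (Thrsp, minus strand), chr17:56109783-56110032 (Plin4, minus strand), chr11:100528001-100528250 (Acly, minus strand) and chr11:120824548-120824797 (Fasn, minus strand). Capitals mark matches, on either strand, to the CCAAT box, the Sp1 box GGGCGG, the TATA box TATAAA, the E-box CACGTG, the sterol element core TCACCCCA or the C/EBP palindrome TTGCGCAA.
Adipoq: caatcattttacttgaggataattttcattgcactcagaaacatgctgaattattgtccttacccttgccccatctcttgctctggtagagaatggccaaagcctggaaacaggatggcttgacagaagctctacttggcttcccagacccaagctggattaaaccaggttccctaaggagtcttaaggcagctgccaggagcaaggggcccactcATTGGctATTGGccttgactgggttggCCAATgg
Cfd: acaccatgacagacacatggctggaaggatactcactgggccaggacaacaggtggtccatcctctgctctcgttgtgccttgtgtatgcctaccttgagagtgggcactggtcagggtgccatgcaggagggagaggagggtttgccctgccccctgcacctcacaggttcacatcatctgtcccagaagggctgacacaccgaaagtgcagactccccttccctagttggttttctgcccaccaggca
Lep: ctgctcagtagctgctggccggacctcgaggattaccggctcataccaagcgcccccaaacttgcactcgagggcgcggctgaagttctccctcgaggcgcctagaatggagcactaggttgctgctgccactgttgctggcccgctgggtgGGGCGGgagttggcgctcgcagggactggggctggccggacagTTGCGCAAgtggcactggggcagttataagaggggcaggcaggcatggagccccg
Thrsp: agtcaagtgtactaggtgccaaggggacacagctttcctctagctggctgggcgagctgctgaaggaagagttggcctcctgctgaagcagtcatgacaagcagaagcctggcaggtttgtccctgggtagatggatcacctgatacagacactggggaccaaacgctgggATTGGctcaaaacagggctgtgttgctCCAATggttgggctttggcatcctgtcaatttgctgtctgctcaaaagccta
Plin4: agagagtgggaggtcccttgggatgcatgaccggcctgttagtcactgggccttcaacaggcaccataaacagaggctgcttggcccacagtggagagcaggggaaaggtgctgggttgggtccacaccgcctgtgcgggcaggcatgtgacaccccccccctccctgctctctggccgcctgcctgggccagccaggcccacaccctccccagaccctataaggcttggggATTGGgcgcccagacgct
Acly: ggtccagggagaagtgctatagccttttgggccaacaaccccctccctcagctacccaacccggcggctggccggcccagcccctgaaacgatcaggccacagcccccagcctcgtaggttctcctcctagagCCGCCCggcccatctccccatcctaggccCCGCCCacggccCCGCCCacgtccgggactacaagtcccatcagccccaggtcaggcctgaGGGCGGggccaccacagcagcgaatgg
Fasn: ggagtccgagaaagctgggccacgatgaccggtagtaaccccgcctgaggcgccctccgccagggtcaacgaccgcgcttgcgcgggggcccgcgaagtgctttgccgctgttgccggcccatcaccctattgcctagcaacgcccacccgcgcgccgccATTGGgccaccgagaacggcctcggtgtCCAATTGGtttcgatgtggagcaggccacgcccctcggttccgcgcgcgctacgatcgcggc
CCAAT was found in 4 of the 23 member windows in the table and in 33.8% of 32851 windows of all genes, and GGGCGG in 10 of the 23 and in 32.7% of all. TATAAA was in 1 member window (12.4% of all windows), CACGTG in 1 (6.02%) and TTGCGCAA in 1, that of Lep (0.164%), while TCACCCCA was in 0 of the 23 (1.34%). The Adipoq window held 3 copies of CCAAT, that of Thrsp 2 and that of Fasn 3, of which 2 overlap. The Cfd window held none of the 6 motifs and that of Acly 4 copies of GGGCGG. A match describes the letters of a window and is no evidence of binding.

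Of the 30 member probes tested, 3 passed limma's genotype test at an adjusted p under 0.05 and all 3 were lower in Car9-/- stomach: Plin4, Lpl and Acly. The direction of Acly turned with median scaling of the arrays, and its call was lost in many other settings, given with its values. Over all 20751 probes 10.6% passed, 5.25% lower in Car9-/- and 5.34% higher, so that the 3 of 30 were near the background. The 1108 higher and 1089 lower probes became 3585 and 426 with median scaling. At an unadjusted p under 0.05 the counts were 16 of 30 member probes and 27.4% of all probes. The median log2 difference was -0.08 over the member probes, -0.26 over the 18 probes of fat cell markers and -0.01 over the 12 probes of lipid synthesis genes, against -0.0007 over all probes. In a specimen of whole stomach wall, fewer cells of a type and less RNA per cell cannot be told apart.

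Car9 itself checked the labels: at its probe 2340128 the log2 signal was 7.96 ± 0.15 in Car9-/- mice and 9.63 ± 0.13 in wild-type mice (SD, n = 6 each), with no overlap, though whether the probe lies in the disrupted stretch is not known here. Arrays had correlations of 0.960 to 0.993 with each other. Before normalization the median signal was 83.3 to 101.4 on the Car9-/- arrays, against 75.6 to 76.9 on those of wild-type mice 4, 5 and 6 and 87.9 to 89.6 on those of wild-type mice 1, 2 and 3. The 8 parietal, chief and pit cell genes, such as Atp4a (-0.34), Atp4b (-0.03), Pgc (-0.11), Cblif (-0.36), Muc5ac (0.88) and Tff1 (-0.04), were detected and passed no genotype test. Neither did the 10 genes of stratified squamous epithelium, such as Krt13 (1.55) and Krt5 (0.10), whose level ranged from -2.41 to 3.12 in Car9-/- mice and from -2.88 to 3.26 in wild-type mice. The level of a list is the mean of its genes' log2 signals, each centred over the 12 mice. Exocrine pancreas genes had a level of -1.68 to -0.71 in Car9-/- mice, against 3.90 in wild-type mouse 4, 3.52 in wild-type mouse 6 and -0.63 to 0.21 in the other wild-type mice, and 3 of their 12 genes passed, all lower in Car9-/-: Prss1 (-3.40, adjusted p = 0.0034), Try4 (-3.60) and Amy2a5 (-3.31). Cela2a, at -2.92, did not. The exocrine pancreas level thus had no overlap between genotypes. A genotype fit adjusted for this level cannot separate genotype from it, so no conclusion is drawn from calls lost there. Differences that leaned on wild-type mice 4 and 6 are given with and without them.

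Among the secreted products, Adipoq, which encodes adiponectin, had log2 signals of 6.41 to 7.90 in Car9-/- mice (median 6.94) and of 6.54 to 11.77 in wild-type mice (median 9.03). Wild-type mice 4 and 6 stood highest, at 11.77 and 11.14, mice 3 and 5 followed at 9.26 and 8.80, and mice 1 and 2 were both at 6.54, within the Car9-/- range. Adipoq was detected on 5 Car9-/- and 4 wild-type arrays, but not in Car9-/- mouse 1 or in wild-type mice 1 and 2. The spread, 2.80-fold among Car9-/- mice and 37.7-fold among wild-type mice, is thus measured down to background. The log2 difference was -1.90 (standard error 0.83, adjusted p = 0.16 from limma), and -0.68 without wild-type mice 4 and 6.

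Cfd encodes the serum protease adipsin, also called complement factor D. Its log2 signal ran from 6.99 to 9.81 in Car9-/- mice (median 7.54) and from 6.88 to 13.08 in wild-type mice (median 11.07). Wild-type mice 6 and 4 were again highest and Car9-/- mouse 2, at 9.81, stood well above wild-type mice 1 and 2, the lowest of their genotype. The log2 difference was -2.42 (standard error 1.09, adjusted p = 0.17), and -1.07 without wild-type mice 4 and 6. Lep, the leptin gene, was detected on 0 of the 6 Car9-/- arrays and on 2 wild-type arrays, those of mice 4 and 6, at 9.80 and 7.80. Measured against the lowest detected signal of each Car9-/- array, the wild-type mean of Lep was at least 1.34-fold higher. That mean rests on wild-type mice 4 and 6. In the other wild-type mice, at 5.92 to 6.34, Lep was not detected, as in all Car9-/- mice. Retn, which encodes resistin, was detected on no array.

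**Figure D1:**
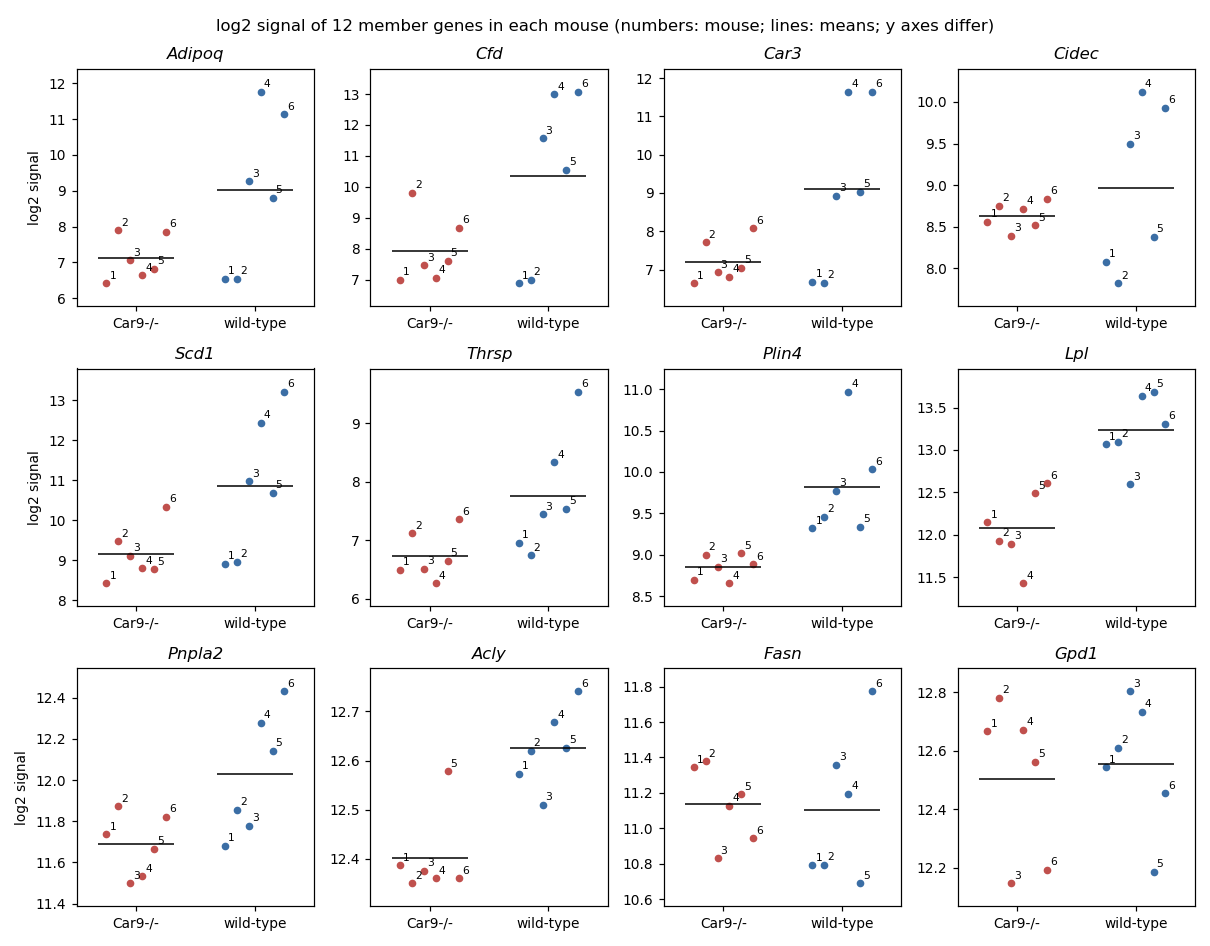
Log2 signal of 12 member genes in each mouse, Car9-/- mice in red and wild-type mice in blue, with the mouse number beside each point and a line at the mean. Wild-type mice 4 and 6 lead in Adipoq, Cfd, Car3, Cidec, Scd1 and Thrsp, and also in Plin4, Pnpla2 and Acly. Plin4 has no overlap between genotypes, and Fasn and Gpd1 overlap throughout.

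Of the proteins that coat the lipid droplet, Plin4, a perilipin of fat cells, fell in Car9-/- stomach. Its log2 signal was 8.66 to 9.02 in Car9-/- mice (median 8.87) and 9.32 to 10.97 in wild-type mice (median 9.61). Wild-type mice 4 and 6 were highest here too, at 10.97 and 10.03. Each Car9-/- mouse lay below each wild-type mouse, which no other tested member probe showed, and 4.54% of all tested probes had groups without overlap. The fall was 1.95-fold (log2 difference -0.96, standard error 0.24, adjusted p = 0.024 from limma). It stood at -0.62 (adjusted p = 0.020) without wild-type mice 4 and 6, and without Car9-/- mouse 1 or 4 the adjusted p was 0.056 and 0.058. After adjustment for exocrine pancreas level, which itself had no overlap between genotypes, the difference was -0.36 (adjusted p = 0.40).

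Cidec, which drives the fusion of droplets into a single large one, was at 8.39 to 8.84 in Car9-/- mice (median 8.64) and at 7.82 to 10.13 in wild-type mice (median 8.94). The Car9-/- values thus lay between those of wild-type mice 1, 2 and 5, at 8.08, 7.82 and 8.38, and those of wild-type mice 3, 4 and 6, at 9.50, 10.13 and 9.93, and the log2 difference was -0.34 (standard error 0.37, adjusted p = 0.58). It was 0.19 without wild-type mice 4 and 6. Cidea, a relative known from brown fat, had a log2 difference of 0.22 (standard error 0.24, adjusted p = 0.59), and wild-type mouse 4 had its lowest signal of all 12 mice. Plin1, the perilipin of white fat cells, was detected on 1 array, that of a wild-type mouse, and not on the others.

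Lipolysis runs through Pnpla2, which encodes adipose triglyceride lipase, and Lipe, which encodes hormone-sensitive lipase. G0s2 encodes an inhibitor of adipose triglyceride lipase. Pnpla2 had log2 signals of 11.50 to 11.87 in Car9-/- mice (median 11.70) and 11.68 to 12.43 in wild-type mice (median 12.00), with wild-type mice 6, 4 and 5 above all others. Its log2 difference was -0.34 (standard error 0.13, adjusted p = 0.11), and -0.18 without wild-type mice 4 and 6. G0s2 was at 7.03 to 7.51 in Car9-/- mice (median 7.37) and 7.39 to 8.45 in wild-type mice (median 7.83). Its difference, -0.53 (standard error 0.17, adjusted p = 0.062), missed the threshold, and 4 of the 6 Car9-/- mice lay below every wild-type mouse. Without wild-type mice 4 and 6 it was -0.32. The 2 tested probes of Lipe had differences of 0.16 and -0.05 (adjusted p = 0.17 and 0.73).

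Lpl encodes lipoprotein lipase, which frees fatty acids from circulating triglyceride at the capillary wall and is made by fat, muscle and macrophages. It had the largest fall among the members that passed. Its log2 signal was 11.43 to 12.60 in Car9-/- mice (median 12.04) and 12.59 to 13.69 in wild-type mice (median 13.20), so that the groups met at Car9-/- mouse 6 and wild-type mouse 3. The fall was 2.22-fold (log2 difference -1.15, standard error 0.22, adjusted p = 0.0093 from limma). Unlike Adipoq, Lpl was high in wild-type mice 1 and 2 as well, at 13.07 and 13.10, near mouse 6 at 13.31. It passed also without wild-type mice 4 and 6 (-1.02, adjusted p = 0.044). After adjustment for exocrine pancreas level the difference was -0.82 (adjusted p = 0.16), and after adjustment for the Adipoq signal -0.99 (adjusted p = 0.056).

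The other transport genes gave little signal. Fabp4, the fatty acid binding protein of fat cells, and Aqp7, a glycerol channel, were not detected above background on any array. Trarg1, which acts on the trafficking of the insulin-sensitive glucose transporter in fat cells, was at 6.59 to 6.98 in Car9-/- mice (median 6.83) and 6.92 to 7.07 in wild-type mice (median 7.01), a difference of -0.18 (standard error 0.07, adjusted p = 0.10). Of the remaining markers, Ucp1, which lets brown fat cells produce heat, and Pck1, which makes glycerol phosphate in fat, were not detected either.

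Car3, a cytosolic carbonic anhydrase abundant in fat cells, followed Adipoq closely. Its log2 signal was 6.64 to 8.08 in Car9-/- mice (median 6.99) and 6.66 to 11.65 in wild-type mice (median 8.98), with wild-type mice 4 and 6 at 11.64 and 11.65. The log2 differences at its 2 probes were -1.89 (standard error 0.83) and -1.55 (standard error 0.67), each with an adjusted p of 0.16. They were -0.63 and -0.52 without wild-type mice 4 and 6.

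The transcription factors of fat cell differentiation did not share this order of the mice. Pparg, the nuclear receptor at the head of that program, was at 10.81 to 11.55 in Car9-/- mice (median 11.34) and 10.04 to 11.15 in wild-type mice (median 10.78). It was higher in the mean in Car9-/- mice, by 0.62 (standard error 0.19, adjusted p = 0.057) and by 0.57 at a second probe (adjusted p = 0.11), and 5 of 6 Car9-/- mice stood above every wild-type mouse at both. The difference at the first probe passed in 6 of 27 alternative settings. Among them were array weights (0.72, adjusted p = 0.015) and median scaling (0.87, adjusted p = 0.010), which moved the median of all tested probes by 0.11. It did not pass without wild-type mice 4 and 6 (0.52, adjusted p = 0.19). Nor did it after adjustment for exocrine pancreas level (0.42, adjusted p = 0.44) or the Adipoq signal (0.64, adjusted p = 0.14). Cebpa, which works with it, differed by 0.11 and 0.12 at its 2 probes (adjusted p = 0.84 and 0.65).

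**Figure D2:**
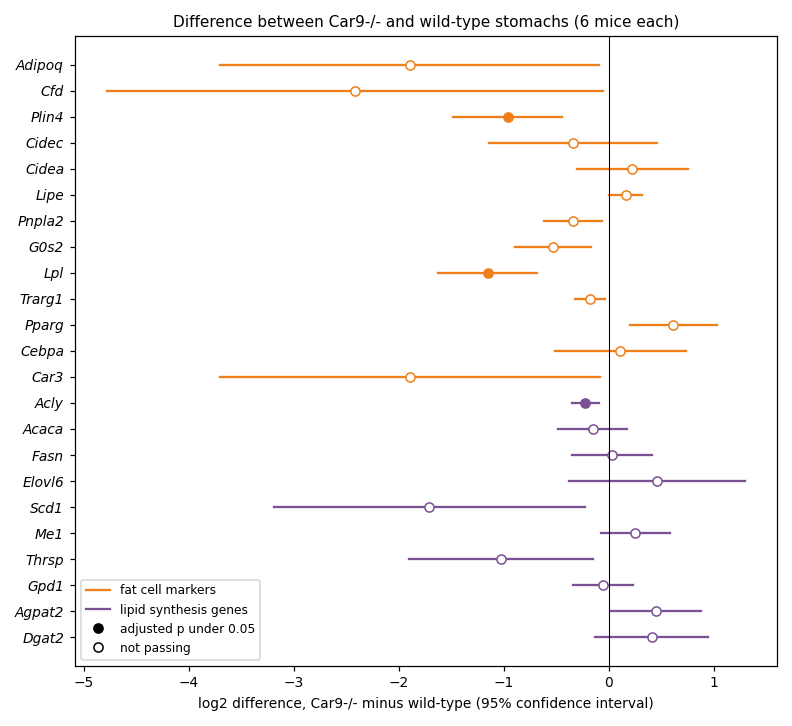
Log2 difference of 23 member genes, Car9-/- minus wild-type, with 95% confidence intervals, fat cell markers in orange and lipid synthesis genes in purple. Filled points, those of Plin4, Lpl and Acly, passed at an adjusted p under 0.05 (the direction of Acly turned with median scaling, and its call was lost in many other settings), and the intervals of Adipoq, Cfd, Car3 and Scd1 are the widest.

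In fatty acid synthesis, Acly, the citrate lyase that supplies acetyl-CoA, fell slightly. Its log2 signal was 12.35 to 12.58 in Car9-/- mice (median 12.37) and 12.51 to 12.74 in wild-type mice (median 12.62). Wild-type mice 6 and 4 were highest, and 5 of 6 Car9-/- mice lay below every wild-type mouse. The fall was 1.17-fold (log2 difference -0.22, standard error 0.06, adjusted p = 0.031 from limma). It depended on the scaling of the arrays: with median scaling, which moved the median of all tested probes by 0.11, the difference of Acly was 0.03 (adjusted p = 0.82). The call was also lost without wild-type mice 4 and 6 (-0.18, adjusted p = 0.14) and in 9 of the 12 fits that left out 1 mouse (adjusted p up to 0.070). It was lost as well with another background correction (adjusted p = 0.076), with the replicate block (0.11) and after adjustment for the level of squamous epithelium (0.053), exocrine pancreas (0.38) or Adipoq (0.14).

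Fasn, the synthase that assembles palmitate, had log2 signals of 10.83, 10.94, 11.13, 11.19, 11.34 and 11.38 in the Car9-/- mice and of 10.69, 10.79, 10.79, 11.20, 11.36 and 11.77 in the wild-type mice, ordered by size, and the wild-type range enclosed the other. The log2 difference was 0.04, with a 95% confidence interval of -0.35 to 0.42 (adjusted p = 0.92). Acaca, the carboxylase that makes malonyl-CoA, gave -0.15 (-0.48 to 0.18, adjusted p = 0.55), and Me1, a source of NADPH for the pathway, gave 0.25 (-0.07 to 0.58, adjusted p = 0.30). Elovl6, which lengthens palmitate, gave 0.46 (standard error 0.39, adjusted p = 0.46), and varied widely among mice of each genotype. For Fasn, Acaca and Me1 the intervals leave room for changes of up to 0.58 log2 units, and for Elovl6 for larger ones. Without wild-type mice 4 and 6 the differences were 0.23 for Fasn, -0.0035 for Acaca, 0.31 for Me1 and 0.21 for Elovl6, and none passed.

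Scd1 and Thrsp stood apart from the other synthesis genes. Scd1, the desaturase that turns stearate into oleate, was at 8.43 to 10.34 in Car9-/- mice (median 8.96) and 8.92 to 13.21 in wild-type mice (median 10.83). Wild-type mice 6 and 4 were highest, at 13.21 and 12.43, and mice 1 and 2 were at 8.92 and 8.97, within the Car9-/- range. The log2 difference was -1.71 (standard error 0.68, adjusted p = 0.13), and -0.73 without wild-type mice 4 and 6. Thrsp, a regulator of lipogenesis induced by thyroid hormone, was at 6.26 to 7.35 in Car9-/- mice (median 6.58) and 6.74 to 9.54 in wild-type mice (median 7.49). It was highest in the same pair of wild-type mice, and its difference was -1.03 (standard error 0.41, adjusted p = 0.12), and -0.44 without them.

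The genes of glycerolipid synthesis were detected on each array, and no probe of them passed. Gpd1, which makes glycerol phosphate, was at 12.15 to 12.78 in Car9-/- mice (median 12.61) and 12.19 to 12.80 in wild-type mice (median 12.58), a difference of -0.05 (95% confidence interval -0.34 to 0.23, adjusted p = 0.83). Agpat2, which adds the next fatty acid, had 0.45 (0.02 to 0.88, adjusted p = 0.17) and Dgat2, which completes the triglyceride, 0.41 (-0.13 to 0.94, adjusted p = 0.30). With median scaling both tested probes of Agpat2 passed as higher in Car9-/- (0.69, adjusted p = 0.033, and 0.44, adjusted p = 0.016). The first also passed with array weights (0.57, adjusted p = 0.026) and without Car9-/- mouse 5 (0.59, adjusted p = 0.031). It did not pass without wild-type mice 4 and 6 (0.50, adjusted p = 0.23) or after adjustment for the Adipoq signal (0.65, adjusted p = 0.12).

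To separate genes that varied with fat cell RNA from the rest, each probe was fitted on the Adipoq signal within genotype. A slope of 1 means that a gene moved by 1 log2 unit for each log2 unit of Adipoq. The lowest Adipoq signals, those of Car9-/- mouse 1 and wild-type mice 1 and 2, were not detected and carry no order among themselves. Of 20750 probes, 14 passed, which is 0.0675%, and 5 of these were member probes of 4 genes out of 29 member probes tested. They were Car3 at both probes, with slopes of 0.99 (standard error 0.05, adjusted p = 1.9e-06) and 0.77 (0.07, adjusted p = 7.9e-04), Cfd at 1.27 (0.10, adjusted p = 2.9e-04), Scd1 at 0.79 (0.07, adjusted p = 5.1e-04) and Cidec at 0.41 (0.05, adjusted p = 0.0062). Of these, 3 are fat cell markers and 1, Scd1, is a synthesis gene. Adipoq had been picked as the measure with its spread between mice already known, so these slopes describe which genes vary together in these 12 specimens.

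**Figure D3:**
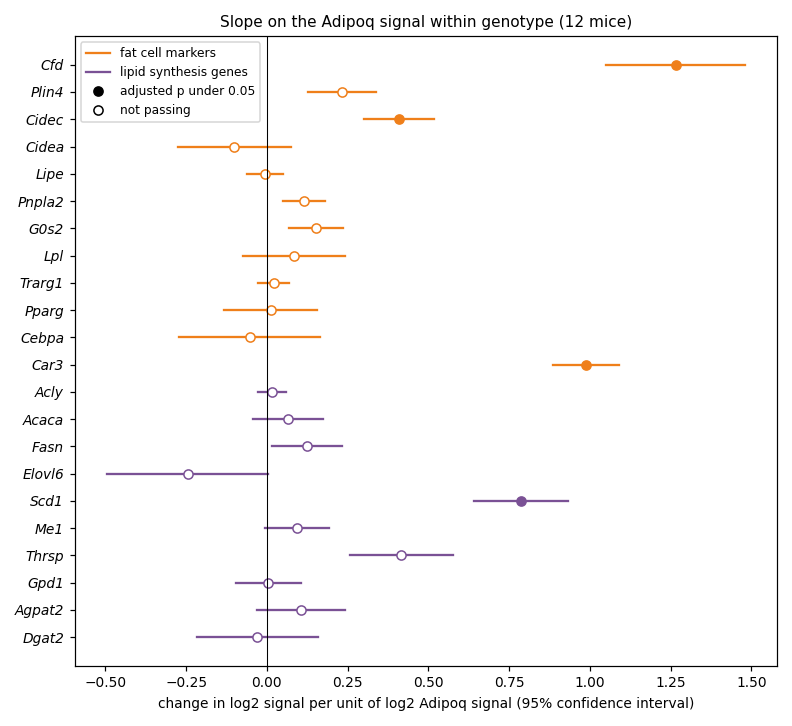
Slope of 22 member genes on the log2 Adipoq signal within genotype, with 95% confidence intervals, colours as for the genotype differences. Filled points passed: Cfd, Cidec, Car3 and Scd1, while 9 of the 10 synthesis genes did not.

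Without wild-type mice 4 and 6 the slopes were 0.90 for Car3 (adjusted p = 0.0012), 1.65 for Cfd (adjusted p = 4.8e-04) and 0.80 for Scd1 (adjusted p = 0.019), while Cidec, at 0.36 (adjusted p = 0.67), and the second Car3 probe, at 0.66 (adjusted p = 0.055), no longer passed. After adjustment for exocrine pancreas level Car3 (0.88) and Cfd (1.64) passed, and Scd1 had 0.75 (adjusted p = 0.18). The wild-type mice 3 and 5 had raised Adipoq without a raised exocrine pancreas level. By Adipoq, wild-type mice 4 and 6 were highest, then 3 and 5, then 1 and 2, and Car9-/- mice 2 and 6 led their genotype. Cfd, Car3, Cidec, Scd1 and Thrsp had this order too, 6 of the 23 tested genes with Adipoq itself. The order was taken from Adipoq, and Cfd, Car3, Cidec and Scd1 had already passed the slope on it. The share of all probes with this order was not counted, so the 6 cannot be set against a background.

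Thrsp had a slope of 0.42 (standard error 0.07, adjusted p = 0.095), Plin4 of 0.23 (0.05, adjusted p = 0.20) and Lpl of 0.08 (0.07, adjusted p = 0.77). Among the other synthesis genes, Fasn had 0.12 (95% confidence interval 0.02 to 0.23, adjusted p = 0.52), Acly 0.02 (-0.03 to 0.06) and Gpd1 0.004 (-0.10 to 0.10), and Elovl6 had -0.25 (-0.50 to 0.004). Over all probes the median slope was 0.003. After adjustment for the Adipoq signal no member probe passed the genotype test (0 of 29, against 3 of 30 without it), where 639 of all probes did. The differences were then -0.99 for Lpl, -0.52 for Plin4 and -0.19 for Acly, most of the unadjusted value for Lpl and Acly. Among the genes whose slopes on Adipoq passed, Car3, Cfd and Scd1 had -0.02, -0.02 and -0.22, and Cidec had 0.43. These genes were picked by their slope on the same signal, so the shift of their differences follows from that choice. The amount of fat attached to each specimen was not measured, and its part in these differences was not tested.

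**Figure D4:**
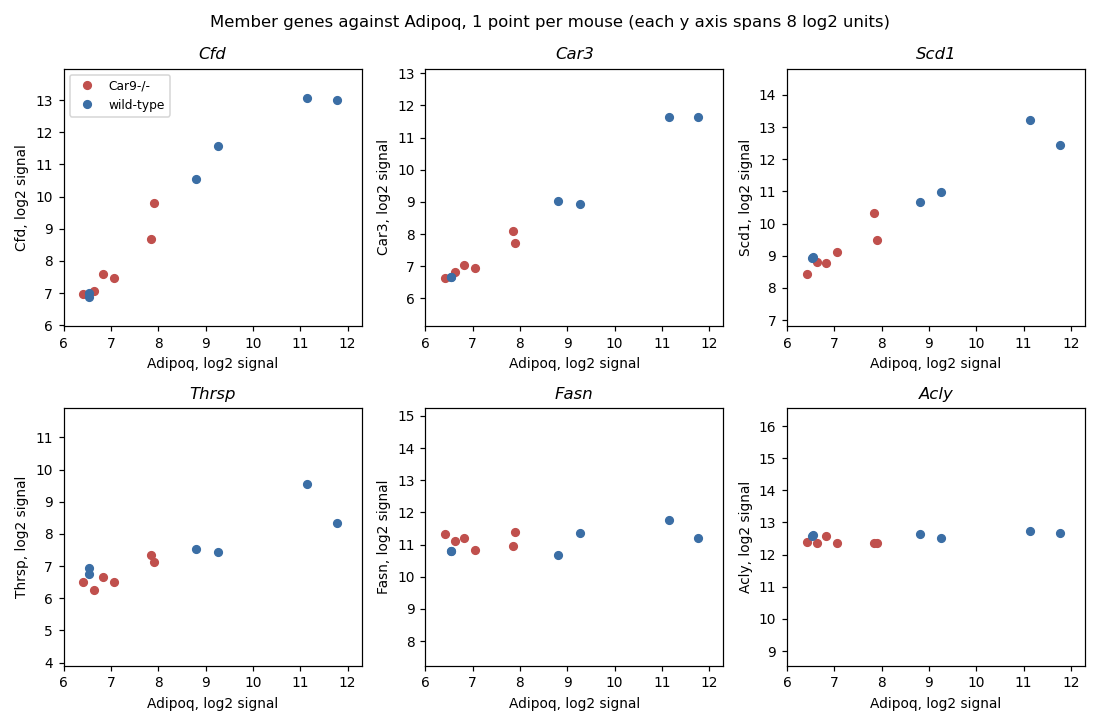
Log2 signal of 6 member genes against that of Adipoq, 1 point per mouse, Car9-/- mice in red and wild-type mice in blue, with y axes of equal length. Cfd, Car3 and Scd1 climb along with Adipoq in both genotypes, Thrsp less steeply, and Fasn and Acly stay nearly level.

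No sex difference of the members was shown, though with 3 mice per genotype and sex one could be missed. No member probe passed between males and females (0 of 30, limma, against 0.0241% of all probes), and 1 of the 30 had an unadjusted p under 0.05, that of Gpd1 (males minus females 0.28, adjusted p = 1.00). For the genotype by sex interaction 0 of 30 passed, against 0.0145% of all probes, and 5 of 30 had an unadjusted p under 0.05, against 9.25% of all probes. These 5 were both probes of Pparg, both of Agpat2 and that of Me1. In males Agpat2 averaged 10.86 ± 0.07 in Car9-/- mice and 9.86 ± 0.19 in wild-type mice, and in females 10.37 ± 0.42 in Car9-/- mice and 10.48 ± 0.19 in wild-type mice (SD, n = 3 each). The interaction was 1.12 (standard error 0.26, adjusted p = 0.21). Pparg likewise had a Car9-/- minus wild-type difference of 1.03 in males and 0.20 in females, with an adjusted p of 0.45 for the interaction. The fall was larger in females for Adipoq (-1.30 in males, -2.49 in females) and Cfd (-1.01 and -3.82). It was larger in males for Plin4 (-1.13 and -0.79) and Lpl (-1.43 and -0.87). Wild-type mice 1 and 2, lowest in Adipoq, were males, as was wild-type mouse 4, the highest.

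Further genes of the same pathways were read from lists of known pathway members. Of 24 tested genes of fatty acid and glycerolipid synthesis outside the members, 4 rose and 2 fell in Car9-/- stomach. The median log2 difference was -0.04, and over all probes 5.34% rose and 5.25% fell. Idh1, a cytosolic source of NADPH, rose by 0.74 (adjusted p = 0.0075) and Slc25a1, which carries citrate out of mitochondria, by 0.58 (adjusted p = 0.0076). Mlycd, which breaks down malonyl-CoA, fell by 0.49 (adjusted p = 0.013) and Lpin1, a phosphatidate phosphatase, by 0.38 (adjusted p = 0.020). Hsd17b12 (0.43) and Acsl5 (0.29), the other genes that rose, were named after their values were seen. Without wild-type mice 4 and 6 the counts were 2 higher and 0 lower, and after adjustment for exocrine pancreas level 0 of 24 passed. No count over all probes stands beside these fits, here or for the lists below, so lost calls cannot be read as particular to a list.

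Of 18 tested genes on a list of other fat cell genes, 0 rose and 6 fell, against 5.34% and 5.25% of all probes. The median log2 difference was -0.39. Gpihbp1, which holds lipoprotein lipase on the capillary wall, fell by 0.84 (adjusted p = 0.0026), and Slc2a4, the insulin-sensitive glucose transporter, by 0.76 (adjusted p = 0.0056). Mgll, the lipase that finishes lipolysis, fell by 0.73 and Cav1, the caveolin of fat cells, muscle and endothelium, by 0.71 (adjusted p = 0.010 for both). The level of the list was -0.40 to -0.02 in Car9-/- mice and 0.06 to 0.43 in wild-type mice, with no overlap, and wild-type mice 1 and 2, where Adipoq was low, were at 0.16 and 0.09. The exocrine pancreas level had no overlap either, so this trait is not particular to fat cell genes. The slopes of these 4 genes on Adipoq were 0.04 to 0.07 and did not pass. On the same list 1 of 18 slopes passed, that of Mrap (0.28, adjusted p = 0.040), and Sncg, which fell most (-1.31), had 0.17 (adjusted p = 0.60), both named after their values were seen. Without wild-type mice 4 and 6, 5 of 17 fell, and 0 of 18 after adjustment for exocrine pancreas level.

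Cells other than fat cells also express many of these genes. Of 10 tested markers of endothelium, smooth muscle, mesothelium and macrophages, 1 passed the genotype test, near the 10.6% of all probes. Of 3 endothelial genes, Pecam1 fell by 0.36 (adjusted p = 0.035) and Cdh5 had -0.23, and the level of the 3 was -0.27 to -0.03 in Car9-/- mice and -0.04 to 0.44 in wild-type mice. The 3 smooth muscle genes, of which Myh11 had -0.73 (adjusted p = 0.051) and Des -0.51 and 0 passed, had a level of -0.72 to 0.09 in Car9-/- mice and -0.18 to 0.70 in wild-type mice. The 3 mesothelial genes, with Msln at -0.06 and Upk3b at -0.70, and Adgre1, the 1 macrophage gene tested, at -0.11, did not pass. The mesothelial level was -0.56 to 0.08 in Car9-/- mice, against 0.85 and 0.64 in wild-type mice 4 and 6 and -0.28 to 0.04 in the other wild-type mice. Adgre1 was likewise highest in wild-type mice 4 and 6, at 0.40 and 0.60 on the same centred scale, against -0.29 to 0.11 in Car9-/- mice. The part of these cells in the falls of Lpl, Plin4, Gpihbp1 and Cav1 was not tested. Of the brown fat genes, Ucp1, Elovl3 and Dio2 were not detected and 0 of the 3 tested genes passed. Cox8b had -0.93 (adjusted p = 0.057 from limma), Cpt1b -0.05 and Cidea 0.22. Cox8b and Cpt1b were named after their values were seen.

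**Figure D5:**
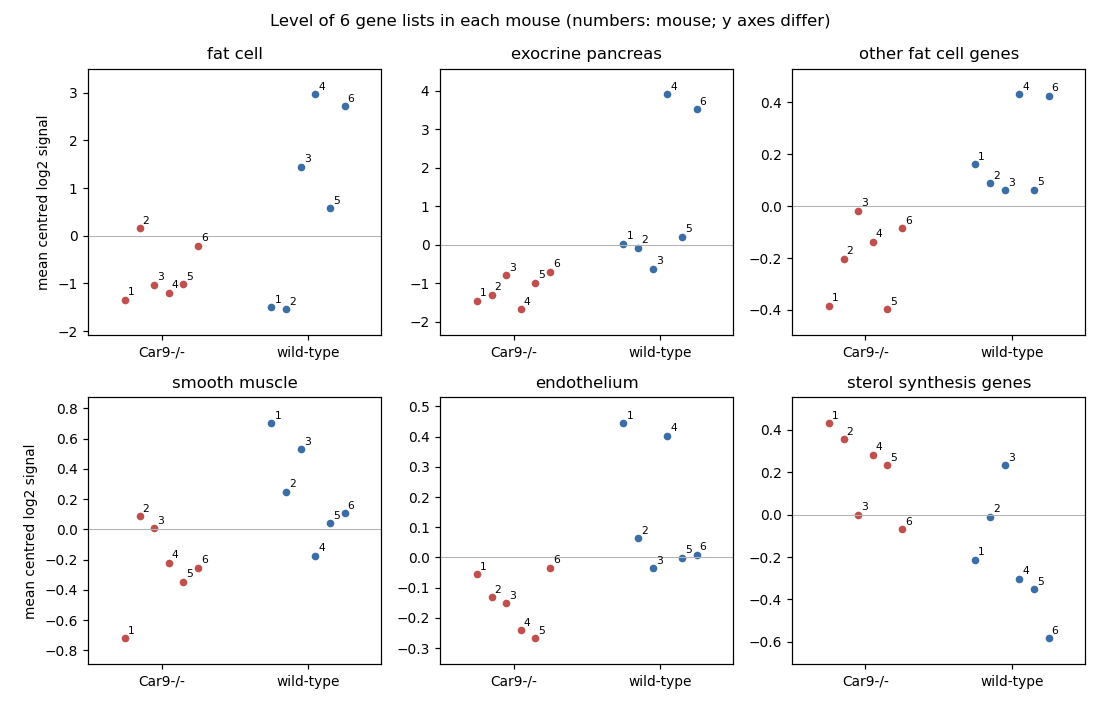
Level of 6 gene lists in each mouse, as the mean of centred log2 signals, Car9-/- mice in red and wild-type mice in blue, with the mouse number beside each point. Fat cell and exocrine pancreas genes are high in wild-type mice 4 and 6, fat cell genes also in mice 3 and 5. The list of other fat cell genes and that of exocrine pancreas genes have no overlap between genotypes.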

How the data were processed

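Total RNA from 12 stomach specimens was hybridised to Illumina Mouse-6 arrays. The authors deposited the summarised signal intensity of each probe with a detection p-value, neither background-subtracted nor normalized, and their own log2 values after quantile normalization. Signals were quantile-normalized on the log2 scale (R 4.3.3, limma 3.58.1), and the result differed from the deposited log2 values by at most 0.0224. A probe entered the tests if 3 or more arrays detected it (p under 0.01). Tests used lmFit and eBayes, and p-values were adjusted by Benjamini-Hochberg over all 20751 probes. Comparisons were genotype, the slope on Adipoq within genotype, sex, and genotype by sex. Where a gene had several tested probes, the probe on the study's list stood for it, otherwise the brightest. Of the 46643 probes, 32794 had 1 symbol, 55 several and 13794 none.

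The members and lists were chosen with earlier results of these data known. Every member is accounted for. Named besides them were Car9, the first 2 genes of each cell type list, up to 4 passing genes of each list by limma's statistic, and up to 8 other genes with the largest positive slope statistics. The models were tested on simulated data. Alternatives were other background correction, scaling, filters, array weights, covariates, the replicate block, the study's filter on variable probes, and leaving out mice. Promoter windows came from RefSeq, where 23 of the 32 members matched. Nothing in the labels says how far specimens were trimmed of fat, and p-values measure the spread between single specimens of single mice.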

Additional observations from a re-analysis of the deposited data

Results flagged for a closer look

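In 3 of the 46 groups of 6 mice examined, 1 mouse lay farther from the rest than Dixon's limit allows, and chance alone gives about 1 in 20. Lipe was at 7.56 in Car9-/- mouse 5, where the next highest Car9-/- mouse was at 7.27. Acly was at 12.58 in the same mouse and at 12.39 in the next, and without that mouse its log2 difference was -0.26 (adjusted p = 0.0091 from limma). Acaca was at 11.32 in wild-type mouse 6 and at 10.61 in the next wild-type mouse, where Car9-/- mice ranged from 10.26 to 10.58.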

How the results depend on the processing

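Against 3 member probes that passed the genotype test, all lower in Car9-/-, the count was 6 with median scaling (4 higher, of Pparg and Agpat2, and 2 lower). With all probes tested it was 5 of 51, all lower, including probes 2760576 and 2810072 of Aqp7, which no array detected. With array weights it was 6 (3 higher, of Pparg and Agpat2, and 3 lower), and with the replicate block 1 (Lpl). As covariates, the exocrine pancreas level left 0 and the Adipoq signal 0, the latter with 639 of all probes passing. When single mice were left out it was 1 to 6, while over all probes 1224 to 3366 passed, against 2197 in the main fit. A changed count is thus not by itself particular to the members. With the study's filter on variable probes and its fold change of 1.4, which set no p threshold, 6 of 6 member probes exceeded the fold, all lower in Car9-/-: both of Car3 and those of Cfd, Scd1, Lep and Adipoq. Of the 280 probes kept by that filter, 59.6% exceeded the fold and 21.8% did so as lower in Car9-/-. Against 5 slopes on Adipoq, where 14 of all probes passed, 3 passed without wild-type mice 4 and 6 (8 of all probes). With the exocrine pancreas level 2 passed (3 of all probes), with the replicate block 2, and 4 to 5 when single mice were left out. With the mean of the fat cell list 3 of 27 passed. That mean is of Adipoq, Cfd and Cidec, which include Adipoq itself and genes whose slope on it had passed, so it is no independent measure. Genotype differences changed sign with median scaling in Acly (0.029), Acaca (0.090) and Gpd1 (0.20), without wild-type mice 4 and 6 in Cidec (0.19), with the exocrine pancreas level in Adipoq (0.20), Cidec (0.49), Car3 (0.30), Acaca (0.042) and Elovl6 (-0.036), with the squamous epithelium level in Cebpa (-0.11), and with the Adipoq signal in Cidec (0.43) and Elovl6 (-0.0027). Leaving out single mice gave -0.046 to 0.17 for Fasn, -0.080 to 0.26 for Cebpa and -0.12 to 0.020 for Gpd1. The causes were not tested. Same-numbered mice of the genotypes deviated together in 1 of 6 pairs, so the numbers were not taken as pairs.

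Median scaling made 3585 of all probes higher and 426 lower in Car9-/-, against 1108 and 1089. Over the 3 further lists it gave 6 higher and 0 lower genes of fatty acid synthesis, 10 and 0 of sterol synthesis, and 0 and 6 other fat cell genes. These list counts, and those without wild-type mice 4 and 6 or with a covariate, were chosen after seeing the data. The number of arrays limits the precision, and genes below background carry no order.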

Other observations

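Sterol synthesis shares the SREBP factors with fatty acid synthesis. Of 14 tested sterol synthesis genes, 2 rose at an adjusted p under 0.05: Fdps, which makes farnesyl pyrophosphate, by 0.86 (adjusted p = 0.033 from limma), and Pmvk, a kinase of the mevalonate pathway, by 0.33 (adjusted p = 0.020). Over all probes 5.34% rose. The median log2 difference was 0.42, against -0.0007 over all probes. The level of the list was -0.07 to 0.43 in Car9-/- mice and -0.58 to 0.23 in wild-type mice. Neither gene passed without wild-type mice 4 and 6 (0 of 14) or after adjustment for exocrine pancreas level (0 of 14), whereas 10 of 14 did with median scaling.

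Outside the members, 9 probes had a slope on Adipoq that passed. Cyp2e1, a cytochrome P450 of liver and fat, had slopes of 0.86 (adjusted p = 8.2e-04) and 0.61 (adjusted p = 0.0011) at its probes. Adig, which encodes adipogenin, had 0.38 (adjusted p = 0.0055) and Mrap, the accessory protein of melanocortin receptors, 0.28 (adjusted p = 0.040), and neither was detected on any Car9-/- array, against 4 and 3 wild-type arrays. Folr2, a folate receptor of macrophages, had 0.32 (adjusted p = 0.027), Ifi27l2a, an interferon-induced gene, 0.43 (adjusted p = 0.0062) and Hspe1, a mitochondrial chaperonin, 0.14 (adjusted p = 0.026). The slope was negative in Bpifb1, a secreted protein of airway and upper digestive epithelia, at -0.67 (adjusted p = 0.0055), and in Robo1, a guidance receptor, at -0.15 (adjusted p = 0.038). Mrap, Bpifb1 and Robo1 were named after their values were seen. Bpifb1 also rose in Car9-/- stomach, by 2.57 (adjusted p = 0.020).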
